A study of Mus musculus with 4 samples.

Results

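The subject here is the set of autosomal sites with more accessible chromatin in both HAT1 knockout (KO) lines than in either wild type (WT) line of immortalized mouse embryonic fibroblasts (MEFs). Its members were chosen by the measured values themselves: the mean of the 2 KO values was at least 20 normalized counts, and the smaller KO value plus 1 was at least 1.5 times the larger WT value plus 1. The rule held for 653 of 80465 autosomal sites, or 0.812%, out of 82325 sites on all chromosomes. Since the rule used the KO and WT values, the differences between genotypes given below describe how the sites were picked and carry no test. Position, sequence and surroundings were not part of the rule.

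The assay was ATAC-Seq on 100000 cells per library. Its enzyme, the Tn5 transposase, inserts sequencing adapters where DNA is open, so reads gather at accessible sites. There were 2 libraries from HAT1+/+ lines and 2 from HAT1-/- lines, all on a C57bl6 background, all carrying the SV40 T antigen and none given a treatment. SV40 T antigen binds p53 and the retinoblastoma protein, and both genotypes had it. Each library came from 1 line, so the line and the genotype cannot be told apart beyond these 2 lines each. The study asked how the loss of HAT1 alters accessibility across the genome.

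HAT1 acetylates newly made histone H4 before it is deposited behind the replication fork. A site of accessible chromatin is usually a promoter, where transcription starts, or a distal element such as an enhancer, where transcription factors displace nucleosomes. In fibroblasts many distal elements carry the binding sequence of AP-1, a dimer of Fos and Jun proteins, often beside sequences of TEAD factors, which act with YAP and TAZ, and of RUNX factors.

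The middle 300 bases of 5 members are shown first, since the set is described below by position and sequence. They are leading members by ratio (near Ppp1r3b), by ratio among protein-coding promoters (Gtf2e2 and Trmo) and by signal (near Pecr and Rpl3), read from the forward strand of GRCm38, the assembly also named mm10. The windows lie at chr8:35321265-35321564, chr8:33730714-33731013, chr4:46387049-46387348, chr1:72255253-72255552 and chr15:80076230-80076529, in the order printed. Capitals mark matches on either strand to the motifs searched, other than the common E-box and NF-kB letters.
Ppp1r3b: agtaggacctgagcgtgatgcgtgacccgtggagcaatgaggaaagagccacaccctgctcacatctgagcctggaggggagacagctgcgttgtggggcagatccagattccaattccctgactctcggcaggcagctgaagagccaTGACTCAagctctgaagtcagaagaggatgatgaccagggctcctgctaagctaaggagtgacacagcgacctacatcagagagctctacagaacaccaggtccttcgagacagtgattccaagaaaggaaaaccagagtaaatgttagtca
Gtf2e2: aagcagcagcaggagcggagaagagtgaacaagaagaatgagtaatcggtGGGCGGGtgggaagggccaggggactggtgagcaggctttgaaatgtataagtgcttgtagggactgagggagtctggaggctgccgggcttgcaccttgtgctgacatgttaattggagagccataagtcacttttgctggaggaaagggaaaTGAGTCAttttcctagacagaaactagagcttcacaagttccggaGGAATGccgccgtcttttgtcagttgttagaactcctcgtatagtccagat
Trmo: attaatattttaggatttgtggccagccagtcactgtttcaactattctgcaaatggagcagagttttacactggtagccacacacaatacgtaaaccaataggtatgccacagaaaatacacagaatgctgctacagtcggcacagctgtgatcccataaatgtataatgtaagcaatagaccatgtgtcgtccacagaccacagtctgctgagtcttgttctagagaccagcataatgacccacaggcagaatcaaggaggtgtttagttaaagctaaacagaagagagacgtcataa
Pecr: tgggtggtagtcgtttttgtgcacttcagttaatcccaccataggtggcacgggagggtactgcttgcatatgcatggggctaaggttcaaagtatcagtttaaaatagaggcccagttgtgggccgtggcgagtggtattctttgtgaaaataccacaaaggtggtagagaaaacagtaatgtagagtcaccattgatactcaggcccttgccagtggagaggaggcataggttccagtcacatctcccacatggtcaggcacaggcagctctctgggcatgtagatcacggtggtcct
Rpl3: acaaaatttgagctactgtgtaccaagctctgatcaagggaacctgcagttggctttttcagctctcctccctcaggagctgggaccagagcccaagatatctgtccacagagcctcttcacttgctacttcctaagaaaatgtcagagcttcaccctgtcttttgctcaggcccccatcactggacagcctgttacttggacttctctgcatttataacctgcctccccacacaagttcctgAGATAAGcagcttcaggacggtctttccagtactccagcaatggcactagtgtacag
The window near Ppp1r3b held 1 match to TGANTCA, the AP-1 letters. The Gtf2e2 window held GGGCGGG, the letters bound by SP and KLF factors, with 1 AP-1 match and 1 match to the TEAD letters CATTCC on the reverse strand. The windows of Trmo and Pecr held no marked match, and that near Rpl3 held AGATAAG, the GATA letters. A match here is a description of the letters and not a measured binding site.

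Library medians over all sites lay between 51 and 53 normalized counts. Scaling factors read from the values put the libraries at about 9420000 and 11400000 reads within sites in WT replicates 1 and 2, and 7830000 and 5680000 for KO replicates 1 and 2. A value of 20 therefore stood for about 23.5, 28.0, 18.6 and 13.3 reads in that order, so the KO values of weak sites rested on fewer reads. The Hat1 promoter site on chromosome 2 (71388852 to 71389931) had 390 and 384 normalized counts in WT and 438 and 368 in KO, so accessibility at that promoter did not separate the genotypes, and the values do not show the deletion itself. Of 8 fibroblast marker genes 7 had a site no more than 1 kb from a transcription start (TSS), with Pdgfra the exception, and their summed values ran from 2124 to 2579. Sites also lay at 3 of 3 epithelial, 3 of 3 neural, 2 of 3 endothelial, 1 of 3 blood and 0 of 3 muscle marker promoters. The summed epithelial values were 196, 132, 172 and 112 and the neural ones 774, 584, 770 and 541 in WT replicates 1 and 2 and KO replicates 1 and 2, and no marker site was a member of the set. Their part in the result was not tested.

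The same rule, applied with other pairs of libraries in the place of the KO pair, found more sites in each case. Sites higher in both WT lines numbered 1611. Of the mixed pairings, WT replicate 1 with KO replicate 1 gave 2260 sites and WT replicate 2 with KO replicate 2 gave 3063, while WT replicate 1 with KO replicate 2 gave 1404 and WT replicate 2 with KO replicate 1 gave 1099. The set of 653 was thus the smallest of the 6 counts.

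**Figure D1:**
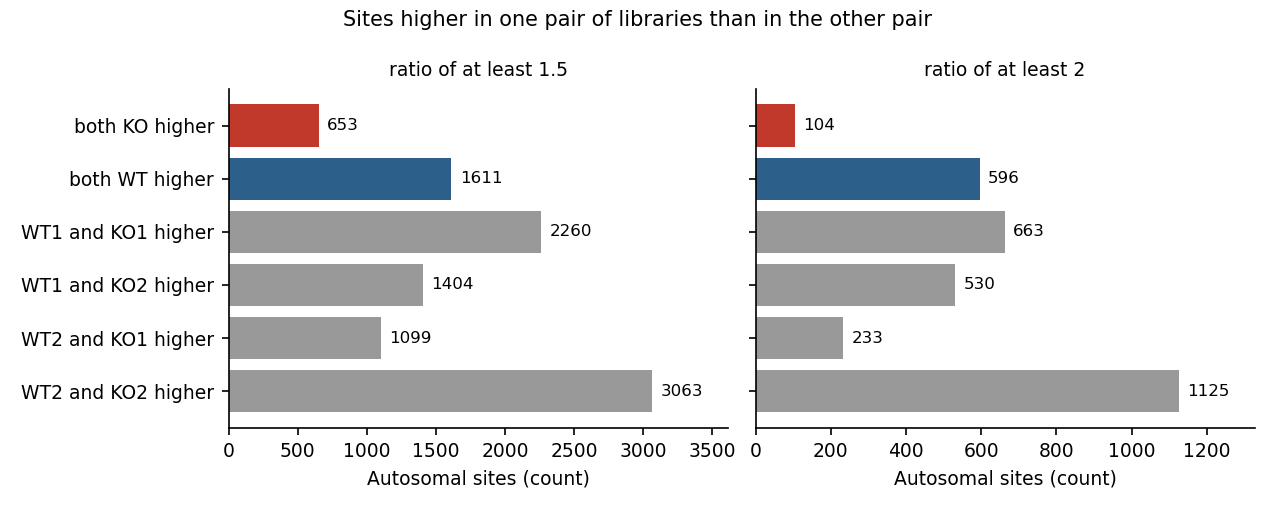
Number of autosomal sites (x axis, from 0) at which both libraries of a pair were at least 1.5 times (left) or at least 2 times (right) as high as the larger value of the other pair, each value plus 1; red is the KO pair, blue the WT pair and grey the mixed pairs. The KO pair has the shortest bar in both panels, at 653 and 104.

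With a ratio of at least 2 the KO pair kept 104 sites, against 596 for the WT pair and 233 to 1125 for the mixed pairs. The order changed where only non-overlap of the values was asked, with the mean of the higher pair still at least 20 but no minimum ratio. Then 11670 sites were higher in both KO lines, 10269 in both WT lines, and 10838 to 15126 in the mixed pairs. Sites higher in both KO lines were as common as those of other pairs by that looser measure, and scarcer when a ratio was required.

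In limma, fitted on log2(value + 1) over all 82325 sites, 58 sites were higher in KO at an unadjusted p under 0.01 and a log2 difference of at least 1, which is 0.0705% of the sites tested. All 58 were members, as both criteria used the same contrast. No site reached an adjusted p under 0.05 in limma, and 2580 sites (3.13%) had an unadjusted p under 0.05.

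Among the 653 members, WT replicate 1 ranged from 1 to 743 normalized counts with a median of 21, and WT replicate 2 from 0 to 698 with a median of 19. KO replicate 1 had a median of 47 and KO replicate 2 a median of 45. Most members were weak sites: 357 (54.7%) had a KO mean under 50 and 122 (18.7%) a KO mean of at least 100. Both WT values were under 20 at 264 members (40.4%).

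The ratio that defined the set had a median of 1.66, with a quartile range of 1.56 to 1.85, so most members lay close to the threshold. It reached 2 at 104 members (15.9%) and 3 at 13 (1.99%). The median log2 difference between the genotypes was 1.11, from 0.60 to 4.85. KO replicate 1 was the higher KO library at 298 members and KO replicate 2 at 328, with 27 ties, so neither KO line was the higher one throughout. The KO lines differed from each other by at least 2 times at 62 members (9.49%).

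At the threshold itself, members near Dst, Pam and Lad1 had a ratio of 1.5, and sites near Tiam2, Il5 and Irf2bp2 had ratios of 1.49 and stayed outside. The Lad1 site had 21 and 14 normalized counts in WT and 36 and 32 in KO, while the Il5 site had 82 and 76 in WT and 123 and 126 in KO. These sites differed in level but hardly in ratio, so the boundary fell within a continuous range of ratios.

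The largest ratio belonged to an intergenic site at 35321126 to 35321703 on chromosome 8. Its nearest gene, 54.3 kb away, was Ppp1r3b, which encodes a subunit that directs protein phosphatase 1 to glycogen. It had 2 and 5 normalized counts in WT, and 243 and 60 in KO. The site was low in both WT lines, and the KO lines differed widely, the higher being KO replicate 1. The second was 37.9 kb from Fgl1, a fibrinogen-like secreted protein, on the same chromosome (41177035 to 41177423), with 1 and 1 in WT, and 47 and 14 in KO. The third, 121 kb from Prag1, a pseudokinase scaffold gene, had 7 and 6 in WT, and 67 and 42 in KO. All of these leading sites lay on chromosome 8 and were highest in KO replicate 1.

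The remaining sites of the first 8 were spread over other chromosomes. A site in an intron of Ddo on chromosome 10, nearest the TSS of Mettl24, had 4 and 3 in WT, and 22 and 35 in KO. A site 183 kb from Tmem196 on chromosome 12 had 10 and 5 in WT, and 51 and 45 in KO. A distal site on chromosome 2 (133972724 to 133972955), 421 kb from Bmp2, had 5 and 4 in WT, and 29 and 24 in KO. Bmp2 encodes a bone morphogenetic protein, a secreted ligand of the TGF-beta family. An intergenic site on chromosome 17, 73.7 kb from Rsph3b, a radial spoke protein of motile cilia, had 20 and 1 in WT, and 81 and 108 in KO. At this site the WT lines also differed widely. An intronic site of Fabp12, a fatty acid binding protein, had 3 and 6 in WT, and 24 and 36 in KO. Each of these 8 sites had WT values of at most 20.

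**Figure D2:**
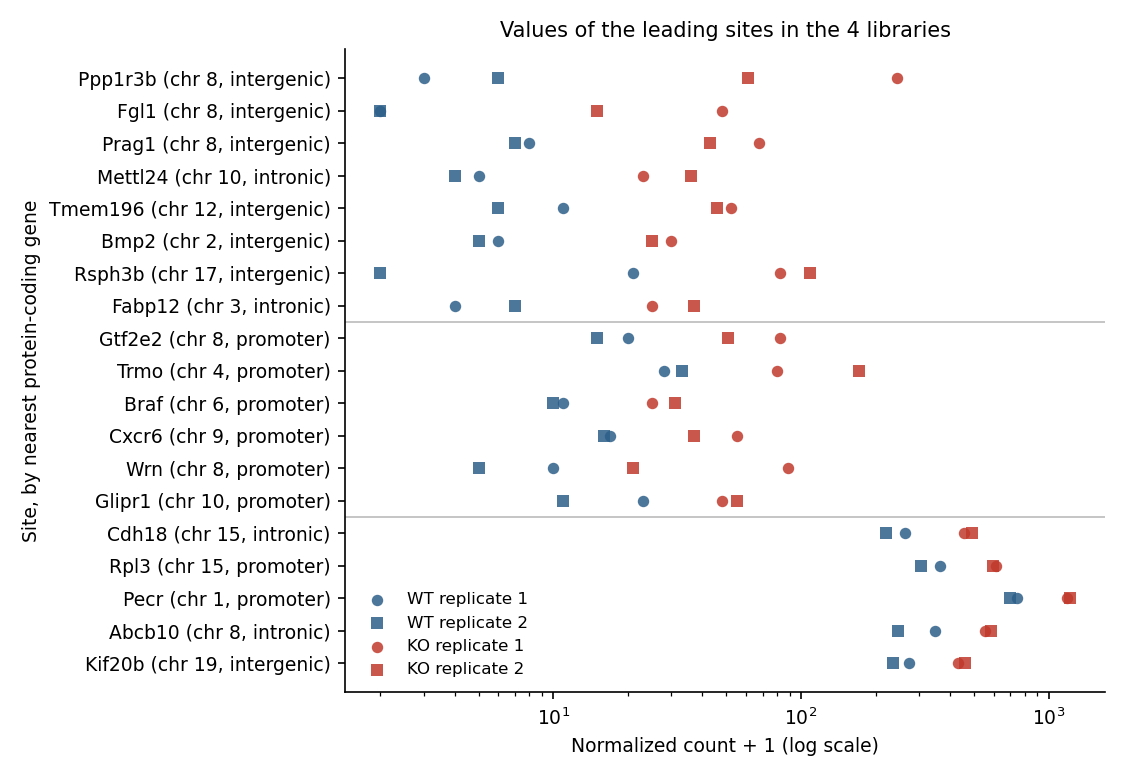
Normalized count plus 1 (x axis, log scale) of the 8 sites with the largest ratio (top block), the 6 protein-coding promoter sites with the largest ratio (middle) and the 5 sites with the highest KO mean (bottom), by nearest protein-coding gene; circles are replicate 1 and squares replicate 2 of WT (blue) and KO (red). The red points lie right of the blue ones at every site, as the rule required, and the gap is widest at the Ppp1r3b site and narrow at the high-signal sites.

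Protein-coding promoters were few: 50 members (7.66%) lay within 3 kb of a protein-coding TSS. The Gtf2e2 site, 0.97 kb from the TSS of this gene of the general factor TFIIE, had 19 and 14 normalized counts in WT, and 81 and 50 in KO. The site of Trmo, a tRNA methyltransferase, had 27 and 32 in WT, and 79 and 170 in KO. The site of Braf, a kinase of the MAPK cascade, had 10 and 9 in WT, and 24 and 30 in KO. These sites were weak for promoters, and 2 of the 3 lay about 2 kb from the TSS rather than on it: 2.22 kb for Trmo and 1.91 kb for Braf.

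The site at the TSS of Cxcr6, a chemokine receptor whose gene lies within Fyco1 here, had 16 and 15 in WT, and 54 and 36 in KO. The site of Wrn, a RecQ helicase, had 9 and 4 in WT, and 88 and 20 in KO. The site of Glipr1, a gene that p53 can activate, had 22 and 10 in WT, and 47 and 54 in KO. In Wrn the KO lines were further apart than the lower KO line was from WT.

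The members with the highest signal differed less between genotypes. A site on chromosome 1 (72254660 to 72256145), 28.9 kb from the TSS of Pecr, a peroxisomal enoyl-CoA reductase, and beside the noncoding gene Gm25939, had 743 and 698 normalized counts in WT, and 1188 and 1220 in KO. The mean was 720.5 ± 31.8 in WT and 1204 ± 22.6 in KO (SD, n = 2), a ratio of means of 1.67. The site 4.10 kb from Rpl3, a protein of the large ribosomal subunit, had 363 and 303 in WT, and 609 and 596 in KO. Replicates at both sites lay close together beside the gap between the genotypes.

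The other members of this kind were intronic or intergenic. A site nearest Abcb10, a mitochondrial transporter gene, had 348 and 246 in WT, and 554 and 586 in KO. A site in an intron of Cdh18, a type II cadherin, had 263 and 220 in WT, and 452 and 490 in KO. A site 168 kb from Kif20b, a mitotic kinesin, had 272 and 234 in WT, and 431 and 457 in KO. Each of them passed the ratio at 1.58 to 1.72.

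By position the 653 members divided into 94 promoter, 31 exonic, 271 intronic and 257 intergenic sites, where promoter means within 3 kb of the TSS of any annotated gene, noncoding ones included. Promoters made up 14.4% of the set (Wilson 95% interval 11.9 to 17.3%), against 35.3% of all autosomal sites and 38.1% of those with a KO mean of at least 20. Intergenic sites made up 39.4% (35.7 to 43.2%), against 29.7% and 28.2%, and intronic sites 41.5%, against 31.2% and 29.9%. The intervals cover counting error only, since neighbouring sites are not independent. Members were thus distal more often than the sites they were drawn from.

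The low share was seen in the other pairs. The promoter share was 24.9% where both WT lines were higher, 26.9% and 23.5% for the mixed pairs with WT replicate 1, and 16.7% and 14.8% for those with WT replicate 2. The 14.4% of the KO set was the lowest of these, but its interval overlapped that of the pair of WT replicate 2 with KO replicate 2 (13.5 to 16.1%). A low share of promoters was therefore not particular to the sites higher in KO.

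The promoter share was also low within classes of signal. For KO means from 20 to 30 it was 13.2% among members and 21.5% among all sites of that signal, and for KO means from 50 to 100 it was 13.8% and 33.2%. Among sites with a KO mean of at least 100 it was 18.9% among members and 57.8% among all. The share among all sites rose with signal, and that among members hardly did.

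Members lay in regions with fewer genes than autosomal sites as a whole. The median distance to a protein-coding TSS was 27.3 kb, against 13.5 kb for all autosomal sites, and 22.1% were more than 100 kb away, against 13.8%. The median number of protein-coding TSSs in the 1 Mb centred on the site was 7, against 9, and 5 to 10 for the other pairs. The median GC content of the surrounding 100 kb was 42.8%, against 44.4%. Sites were shorter, with a median of 367 bp against 441 bp, but within the range of the other pairs, 334 to 461 bp. CpG-rich windows were rare: 13 members (1.99%) had a window with a CpG ratio over 0.6, against 16.6% of all autosomal sites. Sites higher in both WT lines had the same median GC content, 42.8%, and lay further out, at a median of 35.5 kb from a protein-coding TSS, with 29.5% more than 100 kb away. Of those sites 10.9% had a CpG-rich window, more than among members, while the mixed pairs ranged from 1.64% to 8.05%. The median distance of the mixed pairs ran from 17.1 to 45.0 kb, with 13.5% to 31.3% more than 100 kb away. The members lay within these ranges of distance.

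The windows of 300 bases at the centre of each site were searched for 15 motifs on both strands. The AP-1 letters TGANTCA were in 48.4% of the members' windows and in 37.7% of all autosomal windows. As AP-1 letters are rare at promoters, sites that are not promoters make the fairer comparison: there the share was 49.4% (45.2 to 53.5%) among members and 45.9% among all, a difference within the interval. The other pairs ranged from 41.9% to 55.6%. AP-1 letters were thus common in the set without being more so than at other distal sites.

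The RUNX letters TGTGGTT were in 17.9% (14.9 to 21.3%) of the members' windows outside promoters, against 12.2% of all such autosomal windows. The other pairs ranged from 9.87% to 16.7%, the upper end being WT replicate 2 with KO replicate 2. The TEAD letters CATTCC were in 32.9% (29.1 to 36.9%), against 28.4%, with other pairs at 27.5% to 33.4%. Both shares exceeded those of all distal sites by more than counting error. For RUNX another pair came close to the members, and for TEAD WT replicate 2 with KO replicate 2 lay above them, at 33.4%.

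GC-rich motifs ran the other way. The letters AGNGGGC, the core of the CTCF motif, were in 10.9% of the members' windows outside promoters, against 18.2% of all, and the SP and KLF letters GGGCGGG in 1.61%, against 3.13%. The E-box letters CAGCTG were in 14.7%, against 19.1%. The median GC content of these windows was 43.3% among members and 46.3% among all, and its part in the motif shares was not tested.

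**Figure D3:**
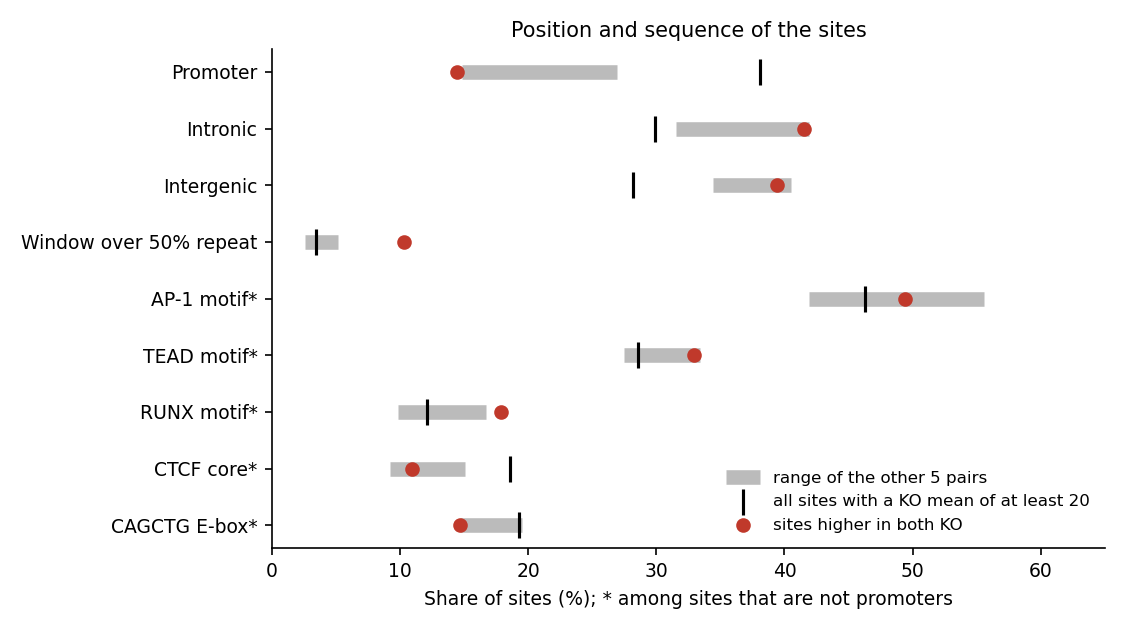
Share of sites in percent (x axis) by position, by repeat content and by motif; red points are the sites higher in both KO, black ticks all autosomal sites with a KO mean of at least 20, and grey bars the range over the other 5 pairs of libraries. The red point lies far outside the grey bar for windows over 50% repeat, at 10.3%, just outside it for RUNX, and within or at the edge of it for most other features.

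Repeat sequence was the feature by which the set stood furthest from the other pairs. In 67 members (10.3%) more than 50% of the window was soft-masked in the reference genome, that is, marked as interspersed or simple repeat, against 3.66% of all autosomal sites and 2.61% to 5.13% of the sites of the other pairs. The excess held in each class of signal: 13.9% of members and 5.88% of sites at a KO mean from 20 to 30, 14.1% and 4.79% from 30 to 50, 6.32% and 3.31% from 50 to 100, and 4.92% and 1.34% at 100 or more. These 67 members were 34 intergenic, 28 intronic, 4 promoter and 1 exonic sites on 17 chromosomes.

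Repeat-rich members had medians of 17 and 16 normalized counts in WT and 39 and 36 in KO. The other 586 members were somewhat higher, at 22 and 20 in WT and 48 and 47 in KO. The 2302 repeat-rich sites of at least 20 in KO that were not members had medians of 38 and 35.5 in WT and 40 and 41 in KO, and 66.3% of them had a higher mean in KO on the log2 scale, against 55.7% of the 66524 other sites. The median log2 difference was 0.16 in the former and 0.04 in the latter, both as a description, since the minimum was set on KO values. Those other sites were stronger, with medians of 65 and 66 in WT and 66 and 65 in KO. Whether the minimum bore equally on weak and strong sites was not tested. A second copy elsewhere in the genome, of at least 95% identity over at least 90% of the window, was found for 11 members (1.68%), against 0.628% of all autosomal sites and 1.61% of sites higher in both WT lines. How reads that match several places were assigned is not given in the sources used here.

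Several repeat-rich members shared sequence with each other. Windows were joined where they had at least 8 stretches of 14 bases in common, which placed 47 members (7.20%) in 13 groups and left 606 on their own. Sites outside the set were not grouped with each other in this way, so whether that share is particular to the set was not tested. This grouping and the groups described here were chosen after the values had been seen. In 1 group of 7 members, on 6 chromosomes, 6 windows were repeat-rich and 6 held AP-1 letters. The windows of 2 of its members are shown because the shared stretch recurs in them: those near Rsph3b at chr17:6874420-6874719 and near Sav1 at chr12:69996039-69996338. Capitals mark bases in stretches of 14 that occur in at least 4 of the 7 windows.
Rsph3b: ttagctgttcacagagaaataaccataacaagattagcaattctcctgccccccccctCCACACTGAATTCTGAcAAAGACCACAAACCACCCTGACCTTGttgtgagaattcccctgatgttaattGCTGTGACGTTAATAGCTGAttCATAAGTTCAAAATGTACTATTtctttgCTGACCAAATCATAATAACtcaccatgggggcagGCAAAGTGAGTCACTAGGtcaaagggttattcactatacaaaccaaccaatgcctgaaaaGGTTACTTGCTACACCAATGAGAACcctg
Sav1: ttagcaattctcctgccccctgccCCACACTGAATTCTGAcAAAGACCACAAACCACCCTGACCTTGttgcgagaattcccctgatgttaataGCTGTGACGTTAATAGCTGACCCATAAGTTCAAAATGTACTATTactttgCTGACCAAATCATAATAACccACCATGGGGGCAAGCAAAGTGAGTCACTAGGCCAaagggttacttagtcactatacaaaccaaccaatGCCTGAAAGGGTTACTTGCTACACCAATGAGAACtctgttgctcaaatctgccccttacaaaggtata
The shared stretches covered 146 and 173 of the bases in these windows. The site near Rsph3b is the one described above by its ratio. The Sav1 site had 24 and 10 normalized counts in WT, and 46 and 45 in KO, and its window had 10 near-identical places in the genome, itself included. The Ceacam15 site had 13 and 9 in WT, and 28 and 32 in KO.

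The other members of the group lay near Klc1, Tmtc4, Alg10b and Mrpl40. The Alg10b site was the strongest, with 159 and 138 in WT, and 252 and 298 in KO. The Klc1 site had 150 and 89 in WT, and 228 and 251 in KO. The Mrpl40 site, with 6 near-identical places, had 21 and 19 in WT, and 49 and 41 in KO. The Tmtc4 site, 32.3% masked, had 21 and 19 in WT, and 45 and 36 in KO. The sites differed widely in level, with KO above WT at each site as the rule required.

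Outside the set, 47 further autosomal sites had at least 8 such stretches in common with a member of this group. Of these 41 (87.2%) had a higher mean in KO on the log2 scale, with a median log2 difference of 0.57. Their median values were 43 and 26 in WT replicates 1 and 2 and 45 and 59 in KO replicates 1 and 2, so WT replicate 2 was lowest, KO replicate 2 highest, and WT replicate 1 and KO replicate 1 were level. The AP-1 letters were in 38 of these 47 windows.

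The remaining groups with at least 3 members had weaker relatives. Sequence of the group with 8 members, which included sites near Smoc2, Patl1 and Smarca4, was found at 731 other sites with a median log2 difference of 0.04. For the second group of 7, with sites near Speg, Bcl6 and Tcp10c, it was found at 256 other sites with a median of 0.25. For groups of 3 or 4 the medians at other sites ran from 0.18 to 0.32.

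The members were uneven over the chromosomes. The share of sites in the set was highest on chromosome 12, at 1.74% (57 of 3275 sites), chromosome 19, at 1.59% (41 of 2573), and chromosome 8, at 1.57% (68 of 4321). It was lowest on chromosome 14, at 0.291% (9 of 3096), and chromosome 10, at 0.405% (18 of 4447).

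For some of these chromosomes the level of the whole chromosome differed between libraries. On chromosome 19 the median of KO replicate 1 was 0.45 above the other libraries on the log2 scale, and on chromosome 14 that of WT replicate 1 was 0.33 above them. On chromosome 12 that of WT replicate 1 was at -0.21 against the others. On chromosome 8 the farthest library was WT replicate 2, at -0.05. With chromosome medians made equal in the 4 libraries the set held 646 sites.

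**Figure D4:**
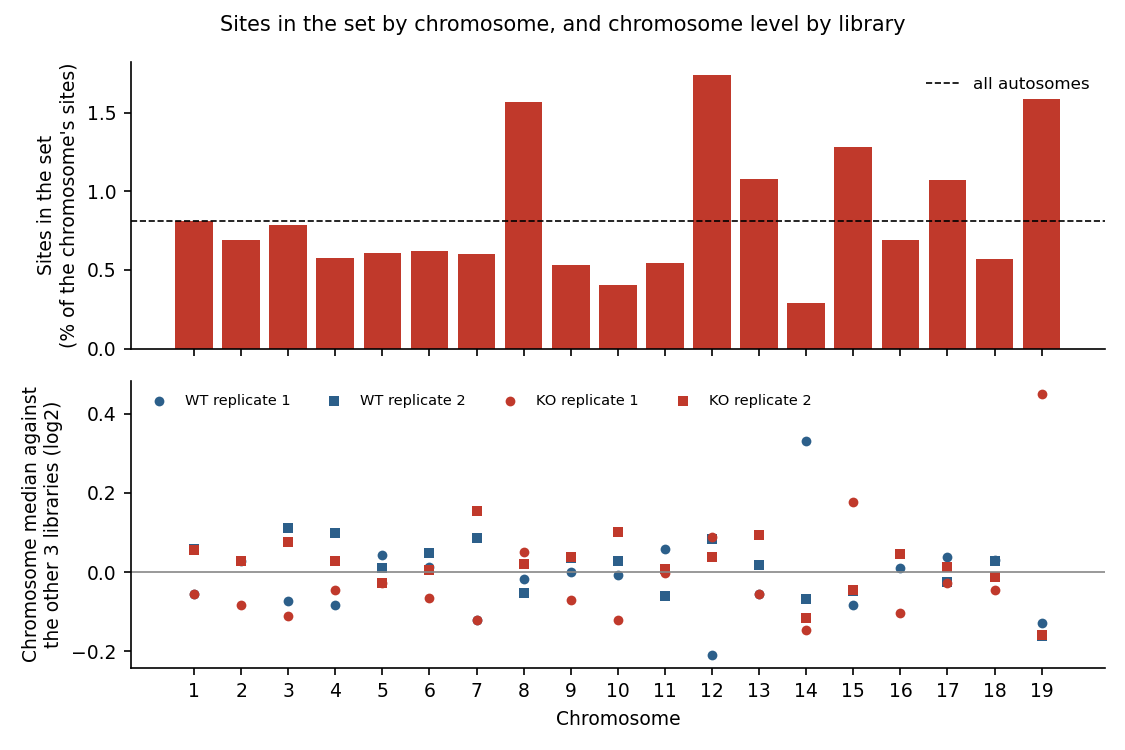
Top, sites in the set as a percentage of each autosome's sites, with the level over all autosomes dashed; bottom, the median of each chromosome in each library against the mean of the other 3 libraries (log2), circles for replicate 1 and squares for replicate 2. Chromosomes 8, 12 and 19 have the tallest bars, and the farthest points below are KO replicate 1 on chromosome 19 and WT replicate 1 on chromosome 14.

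The densest stretch lay on chromosome 8. Between 30 and 42 Mb, limits chosen after the values had been seen, 25 of 399 sites (6.27%) were members, against 0.784% of the sites elsewhere. They included the 3 sites with the largest ratio, and 11 of the 25 had a ratio of at least 2. KO replicate 1 was the higher KO library at 19 of them. Applied to the same stretch, the rule found 9 sites higher in both WT lines, 11 and 13 for the mixed pairs with WT replicate 1, and 1 and 28 for those with WT replicate 2. The sites around them that were not members had medians of 46 and 46 in WT and 44 and 47 in KO. Their median log2 difference was 0.01. Over all sites from 30 to 40 Mb, members included, the medians were 43 and 43 in WT and 49 and 47 in KO.

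From the centromere side, this stretch began with a pair of sites 908 kb from Unc5d, a netrin receptor gene. The first had 35 and 0 normalized counts in WT, and 72 and 65 in KO, and the second had 90 and 0 in WT, and 195 and 153 in KO. WT replicate 2 had no count at either, while WT replicate 1 was well covered. An intronic site of Nrg1, which encodes an ErbB receptor ligand, had 27 and 9 in WT, and 138 and 84 in KO.

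Further sites lay along the same arm. The exonic site of Tex15, a meiotic gene, had 24 and 17 in WT, and 94 and 42 in KO. The site nearest Msr1, a macrophage scavenger receptor, was the strongest of the stretch, with 128 and 135 in WT, and 254 and 229 in KO. An intronic site 43.4 kb from the TSS of Asah1, acid ceramidase, had 32 and 25 in WT, and 159 and 54 in KO. The promoter sites of Gtf2e2 and Wrn described above are the 2 promoters of the stretch.

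**Figure D5:**
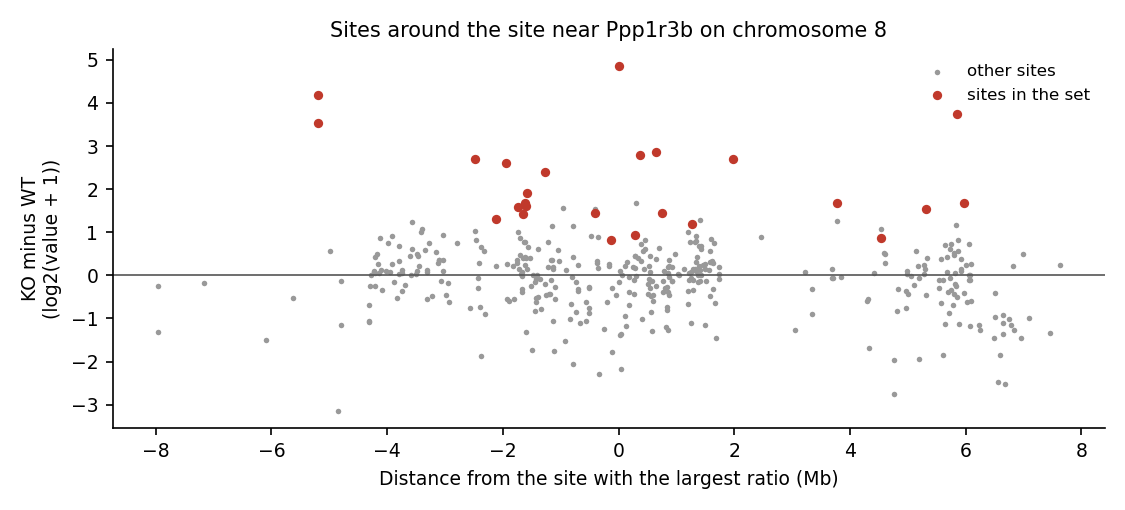
Difference between KO and WT means on the log2(value + 1) scale (y axis) of autosomal sites within 8 Mb of the site near Ppp1r3b, by distance from it in Mb (x axis); red points are sites in the set and grey points the others. The red points are scattered over most of the stretch, among grey points on both sides of 0.

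A second stretch, from 3 to 15 Mb on chromosome 17 and likewise picked after the values had been seen, held 12 members of 466 sites (2.58%), against 0.801% elsewhere. The rule found 15 sites higher in both WT lines there and 5 to 18 for the mixed pairs. Those sets were larger over all autosomes, at 1611 and 1099 to 3063 sites against 653. These counts therefore do not compare how concentrated the sets were in the stretch. Of the 12 members 6 had a second copy in the genome. An intronic site there, nearest the TSS of Rnaset2a, was the only other member with a WT value of 0.

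Most members stood alone. Joining members at most 50 kb apart left 580 single sites and 34 runs that held the other 73 (11.2%). The longest run had 4 members among 11 sites over 58.1 kb of chromosome 8, between Gsr, which encodes glutathione reductase, and Gtf2e2. Their KO values ran from 12 to 144 and their WT values from 6 to 66.

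Runs of 3 members lay near Sorcs1, Tox3 and Ccl28. Near Sorcs1, a sorting receptor gene on chromosome 19, 3 of 5 sites were members, with WT values from 11 to 36 and KO values from 26 to 80. Near Tox3, an HMG-box gene on chromosome 8, 3 of 4 sites were members, with WT values from 3 to 19 and KO values from 17 to 59. Near Ccl28, a chemokine gene on chromosome 13, 3 of 5 sites were members, with WT values from 1 to 26 and KO values from 33 to 61. Sorcs1 had the most members of any gene by nearest TSS, 6 of 22 sites, 3 of them intronic.

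Sites next to members, themselves outside the set, were slightly higher in KO. Their median log2 difference was 0.24 for 757 sites within 10 kb, 0.13 from 10 to 50 kb, 0.06 from 50 to 200 kb and 0.02 from 200 kb to 1 Mb. Within 10 kb 74.4% were higher in KO, against 50.5% of all sites outside the set. The difference thus fell off with distance within 1 Mb. Both KO libraries showed it, at 0.21 and 0.25 above the WT mean within 10 kb.

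The 653 members had 565 different nearest protein-coding genes, which is 3.67% of the 15386 autosomal genes nearest to at least 1 site with a KO mean of at least 20. A nearest gene is a label for position, and no expression was measured here. By sites, 0.940% of those with a KO mean of at least 20 were members. The lists of genes below were read against these figures.

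Transcription factors of mesenchyme and limb had members at 8 of 50 genes, or 10 of 516 sites (1.94%). The site 6.74 kb from Emx2, a homeobox gene, had 12 and 10 normalized counts in WT, and 57 and 29 in KO. The stronger by ratio of the sites nearest Nr2f2, an orphan nuclear receptor, had 14 and 11 in WT, and 33 and 38 in KO, but lay 470 kb from its TSS. The site nearest Osr1, a zinc finger factor of mesenchyme, had 13 and 13 in WT, and 29 and 26 in KO.

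The other genes of this list were Tbx5, Foxf1, Nr2f1, Ebf1 and Snai2. The site 3.96 kb from Tbx5, a T-box factor of the forelimb, had 7 and 28 in WT, and 61 and 44 in KO. The site near Nr2f1 had 54 and 69 in WT, and 105 and 161 in KO, and lay 303 kb away. Most of these sites were distal to the gene that names them.

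Growth factor genes and genes of Wnt and TGF-beta signalling had members at 10 of 67 genes, or 12 of 743 sites (1.62%). Beside Bmp2 and Nrg1 described above, the site 5.99 kb from Dkk2, a secreted Wnt antagonist, had 8 and 2 in WT, and 22 and 47 in KO. The second site nearest Bmp2, 315 kb away, had 19 and 18 in WT, and 86 and 39 in KO. Of a pair of intronic sites nearest Vegfc, a lymphatic growth factor, the stronger had 43 and 49 in WT, and 82 and 95 in KO.

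The other genes of this list were represented by single sites. The site nearest Tgfbr2, a TGF-beta receptor, had 14 and 14 in WT, and 25 and 23 in KO. The site nearest Igf1 had 12 and 17 in WT, and 28 and 32 in KO. The remaining genes were Fgf5, Rspo3, Dkk3 and Smad7, with ratios of 1.5 to 1.71.

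Contractile and cytoskeletal genes had members at 3 of 18 genes, or 3 of 132 sites (2.27%). The site 2.14 kb from the TSS of Ccn2, a matricellular target of YAP and TEAD, had 74 and 75 in WT, and 128 and 120 in KO. The site 4.10 kb from Myh11, smooth muscle myosin, had 25 and 19 in WT, and 41 and 45 in KO. The site nearest Ankrd1, another YAP and TEAD target, had 13 and 20 in WT, and 32 and 41 in KO, at 108 kb. The replicates of the Ccn2 site were close together.

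Matrix genes had members at 5 of 44 genes, or 7 of 585 sites (1.20%), namely Adamts5, Col11a1, Col12a1, Has2 and Tnc. The site 54.4 kb from Adamts5, an aggrecanase, had 31 and 21 in WT, and 93 and 56 in KO. The site nearest Col12a1, a fibril-associated collagen, had 8 and 27 in WT, and 44 and 51 in KO. Has2, the hyaluronan synthase gene, had a distal site at 12 and 12 in WT, and 19 and 24 in KO.

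Genes of neuronal adhesion and axon guidance had members at 4 of 41 genes, or 5 of 553 sites (0.904%), about the overall share. They were Efna5, Nrp2, Cdh18 and Sema3c. The site 49.3 kb from Nrp2, a semaphorin and VEGF co-receptor, had 21 and 20 in WT, and 45 and 54 in KO. The site nearest Efna5, an ephrin, lay in an intron of Fbxl17 and had 19 and 3 in WT, and 44 and 47 in KO.

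Among p53 targets and brakes of the cell cycle, 1 of 23 genes had a member, Pmaip1, a BH3-only protein, whose site 53.9 kb away had 25 and 25 in WT, and 44 and 41 in KO. No member lay nearest any of 22 genes of AP-1, TEAD and SRF factors (182 sites), of 35 cytokine and interferon response genes (188 sites) or of 18 genes of HAT1, its histone chaperones and other acetyltransferases (70 sites). These lists held few sites, and their lack of members was not tested against the overall share. The cytokine list did not include Ccl28, the chemokine gene nearest to 3 members described above. Within 5 Mb of Hat1 itself 4 of 415 sites (0.964%) were members.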

How the data were processed

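The 4 ATAC-Seq libraries were grouped by the genotype in their labels, 2 per genotype, and numbered in accession order, which pairs nothing. Per the study's methods and the submitters' processing notes, paired-end reads were mapped by the authors with BWA 0.7.12 (mm10), peaks came from MACS2 2.1.0, and genotypes were compared with DESeq2. Duplicate removal, the Tn5 offset and the handling of reads with several matches are not given in the sources used here. Each deposited value is a score, namely reads in a merged site over a scaling factor of that library, rounded by the authors to a whole number. Factors were read from the pattern this rounding leaves in low values, so depths are approximate and intervals cover counting error only. The deposited columns of fold changes, shrunken fold changes, p-values and adjusted p-values hold the authors' own comparison and were not used.

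The members and gene lists were chosen with earlier results of these data known. Sites were annotated with GENCODE vM21 on GRCm38, promoters being within 3 kb of a TSS, and windows of 300 bases were read from RefSeq's sequence of that assembly. Second copies were searched with minimap2 2.31, with at least 90% of the window at 95% identity. The test over all sites was limma 3.58.1 (R 4.3.3), with a trend on mean signal, on log2(value + 1), a scale that understates changes of low sites; a site was called at an unadjusted p under 0.01 and a log2 difference of at least 1. The procedure was tested on simulated data. Other computations used Python 3.11.15, numpy 2.4.6 and pandas 2.3.3.

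The sites named were the 8 with the largest ratio, the 6 protein-coding promoters with the largest ratio, the 5 with the highest KO mean, the longest runs of members at most 50 kb apart, the 3 sites on each side of the threshold, and up to 4 sites per gene list. Further sites of the lists, of the chromosome 8 stretch and of the groups with shared sequence were chosen after their values were seen. A nearest gene is the one with the nearest protein-coding TSS to the site's centre. Alternatives changed the pseudocount, the scaling, the minimum KO mean, the ratio, the promoter distance and the libraries used. Leaving out sites with second copies or repeat-rich windows was added after seeing the data. Some sequences and a site are not reported here.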

Additional observations from a re-analysis of the deposited data

Results flagged for a closer look

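On the X chromosome, which the rule left out, 9 of 1844 sites (0.488%) met the same criteria, and 0 of 16 on Y did. They are given here because these sites were outside the values described above. The strongest by KO values, a promoter site near Bcor, which encodes a BCL6 corepressor, had 33 and 18 normalized counts in WT and 67 and 62 in KO. A site nearest Pgr15l had 3 and 0 in WT and 39 and 5 in KO, so it rested on KO replicate 1.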

How the results depend on the processing

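The set of 653 sites held 359 with a pseudocount of 8, 296 with a KO mean of at least 50 and 104 with a ratio of at least 2. It held 464 with libraries scaled to equal totals, 922 after quantile normalization and 646 with chromosome medians made equal, and under each of these scalings it was smaller than the sets of the other 5 pairs. With any 1 library left out the rule on the other 3 found 3710 to 5426 sites: 3710 without WT replicate 1, 3723 without WT replicate 2, 5426 without KO replicate 1 and 4833 without KO replicate 2. The promoter share of 14.4% was 7.35% with promoters taken within 1 kb, and 16.7% to 21.1% with a library left out. The intergenic share of 39.4% was 45.2% at a ratio of at least 2 and 35.6% to 40.4% with a library left out. The AP-1 share of 48.4% was 44.2% at that ratio, 54.1% where the whole site was searched, and 42.9% to 52.3% with a library left out. The 58 limma calls became 0 at an adjusted p under 0.05, with 2580 sites at an unadjusted p under 0.05, and 22 to 64 with a library left out, the lowest without WT replicate 2. The lone library was then taken to vary like those of the other genotype. Apart from fewer libraries or stricter limits, the cause of these changes was not tested. Without sites that had second copies 642 members remained by construction, and without repeat-rich windows 586, with promoter shares of 14.3% and 15.4%; both were added after seeing the data. Among the named members 0 reversed in direction under any alternative run. The rule fixed this in advance for a changed pseudocount or a library left out, so it is no sign of stability. Depth limits weak sites most, the KO values above all. No paired analysis was possible because the labels number no replicates. The line names of WT replicate 1 and KO replicate 2 begin with the same number, but the labels do not say what it marks, and the other 2 lines share none.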
